A study of Mus musculus with 12 samples.

Results

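A set of 10 genes for heat shock proteins of the cytosol and of the mitochondrial matrix was followed in the hippocampus of 2 mouse lines with a deletion in Shank2, which encodes a protein that anchors receptors at excitatory synapses. The 10 genes, namely Hspa8, Hspa1a, Hspa1b, Dnajb1, Hsph1, Hsp90aa1, Hsp90ab1, Hspb1, Hspd1 and Hspe1, were chosen by name and matched by Ensembl identifier, out of 24590 identifiers listed in at least 1 mouse. All 10 were listed in all 12 mice and passed the filter of a mean of at least 1 FPKM, a read level set relative to transcript length and library size, which 14212 genes did in all. The groups were 3 knockout mice (exon 6-7 KO) and 3 wild-type mice (exon 6-7 WT) of a line that lacks exons 6 and 7, and 3 knockout mice (exon 7 KO) and 3 wild-type mice (exon 7 WT) of a line that lacks exon 7. All carried a mixed C57BL/6J and C57BLl/6N background, as the labels spell it. The protocol in the labels describes males of 8 to 15 weeks and their WT littermates. No Cre driver, other allele or agent is named. Each mouse number occurs once, and replicates are taken as separate animals, named below by genotype and number (KO776, WT778).

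Heat shock proteins are chaperones that hold, fold and release other proteins. Hsp70 proteins bind exposed stretches of unfolded chains in a cycle started by J-domain partners and reset by exchange factors, Hsp90 proteins finish the folding of kinases and receptors, and small heat shock proteins hold aggregating chains in check. The chaperonin of mitochondria is a barrel of Hsp60 closed by a lid of Hsp10. When unfolded protein accumulates, heat shock factor 1 binds repeated GAA units, the heat shock element, and raises transcription of many of these genes, and neurons are known for a weak response of this kind.

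Short promoter stretches are shown because they carry such units and belong to the pairs and genes on which the results below turn. RefSeq promoter windows (GRCm38.p6, from 250 bases before to 50 after a start) were found for 7 of the 10 genes; Hspa8, Hsp90aa1 and Hsp90ab1 are named only. Capitals mark matches to the 2-unit motif, GAANNTTC or TTCNNGAA, searched on both strands. Where 2-unit matches overlap they also form the 3-unit motif, GAANNTTCNNGAA or TTCNNGAANNTTC. The first stretch covers the 107 bases between the first exons of a transcript of Hspd1 and one of Hspe1, which start on opposite strands (chr1:55088025-55088131, plus strand). The others are Hspa1a (chr17:34972206-34972276, minus strand), Hspa1b (chr17:34959288-34959358, minus strand), Hspb1 (chr5:135887779-135887849, plus strand) and Hsph1 (chr5:149636352-149636381, minus strand), each read 5′ to 3′ along its gene.
Hspd1 and Hspe1: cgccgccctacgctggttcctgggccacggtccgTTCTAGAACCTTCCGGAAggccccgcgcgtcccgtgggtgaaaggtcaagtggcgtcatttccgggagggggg
Hspa1a: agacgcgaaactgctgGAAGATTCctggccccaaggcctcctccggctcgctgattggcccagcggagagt
Hspa1b: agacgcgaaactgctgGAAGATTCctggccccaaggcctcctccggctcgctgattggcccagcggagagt
Hspb1: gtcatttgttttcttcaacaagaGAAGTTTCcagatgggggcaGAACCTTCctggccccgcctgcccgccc
Hsph1: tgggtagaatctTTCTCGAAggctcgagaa

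The run of 18 capitals between Hspd1 and Hspe1 held 2 overlapping 3-unit matches, 89 to 72 bases before the RefSeq start of Hspe1. Of 32851 mouse promoter windows of the same length, 0.603% held the 3-unit motif and 15.1% the 2-unit motif. The Hspa1a and Hspa1b windows were 98.7% equal over 300.0 bases, and the stretches printed above were identical. In the Hsph1 windows a 3-unit match lay after the start. The Hsph1 stretch printed above lies before a RefSeq start, but mostly inside the gene as annotated in GENCODE M21 (chr5:149614287-149636376). Another RefSeq window of Hspd1 (chr1:55088194-55088493) held neither motif. Neither did the 2 windows of Dnajb1, which says only that these letters are not in those windows.

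The targeted gene was measured first. Shank2 had 6.22, 7.02 and 6.15 FPKM in exon 6-7 KO mice, against 14.4, 13.8 and 14.9 FPKM in exon 6-7 WT mice (log2 fold change −1.04, limma adjusted p = 0.0111). It had 33.2 to 44.6 FPKM in exon 7 KO mice and 36.04 to 44.1 FPKM in exon 7 WT mice, so the sum over the gene did not part the genotypes of that line. All 12 markers of hippocampal neurons were listed in every mouse, with a summed level of 2219 to 3053 FPKM. A set of 4 libraries (KO776, WT778, KO969 and WT628, 1 in each group, set A) listed no value for ENSMUSG00000095746, which had 218 to 435 FPKM in the other 8 (set B); no label names these sets. Oligodendrocyte markers lay below 0 in KO against WT for 10 of 10 genes in both lines. Their median was −0.38 for exon 6-7 mice and −0.08 for exon 7 mice. Of all genes, 50.6% and 53.3% lay below 0, respectively. After rescaling to TPM 9 and 8 oligodendrocyte markers did so, and after quantile normalization 10 and 9. Microglia markers lay below 0 for 9 of 10 genes in both lines (8 and 5 after rescaling to TPM). Without WT865, 9 oligodendrocyte and 7 microglia markers did so for exon 6-7 mice. Choroid plexus markers, which stand for tissue next to the hippocampus, summed to 110 FPKM in WT865 and to 1832 to 9156 FPKM in the other 11 libraries. FPKM values keep no read total, so the depth behind them is unknown. In tissue of mixed cells, fewer cells of a type and less RNA per cell cannot be told apart.

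None of the 10 heat shock protein genes passed the test for a difference between genotypes in either line. Limma called 0 of 10 at an adjusted p under 0.05 in exon 6-7 KO against WT mice, where it called 0.0141% of all genes, 0 of 10 in exon 7 KO against WT mice, where it called 0% of all genes, and 0 of 10 in the difference of these effects, where it called 0.00704%. The adjusted p of each of the 10 was 0.9998 in the exon 6-7 comparison, 0.9999 in the exon 7 comparison and 0.9998 in the difference. At an unadjusted p under 0.05 there was 1 gene in the exon 6-7 line (Hspb1; 4.1% of all genes), 1 in the exon 7 line (Hsph1; 3.46%) and 2 in the difference (Hspb1 and Hsph1; 3.88%).

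In the exon 7 line all 10 log2 fold changes of KO against WT lay below 0, with a median of −0.10, while 53.3% of all genes lay below 0 with a median of −0.01; with FPKM as deposited 9 of 10 lay below 0, after rescaling to TPM 8, after quantile normalization 7, with set B libraries alone 7, and with array quality weights 6. In the exon 6-7 line 5 lay above and 5 below 0, where 49.4% and 50.6% of all genes did, with a median of 0.03 beside −0.00 for all genes; as deposited 6 lay above 0, after rescaling to TPM 8 and after quantile normalization 9. Rescaling to TPM also moved the median of all genes, to 0.05 for exon 6-7 mice and 0.04 for exon 7 mice, so that counts around 0 on that scale are not relative to all genes. Below 0 in both lines were the other 5 genes, Hspa1a, Hspa8, Hsp90ab1, Hspd1 and Hspe1. A pattern of values above 0 in exon 6-7 mice and below 0 in exon 7 mice held for 5 genes (Hspa1b, Hsph1, Hspb1, Dnajb1 and Hsp90aa1) and for 28.4% of all genes. The exon 6-7 effect minus the exon 7 effect was above 0 for 8 of 10 genes, with a median of 0.13 beside 0.01 for all genes, where 51.2% lay above 0. Without the exon 7 knockout KO969 only 6 of 10 lay below 0 in the exon 7 line (median −0.08), and without KO994 the median was −0.22, with 9 of 10 below 0.

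**Figure D1:**
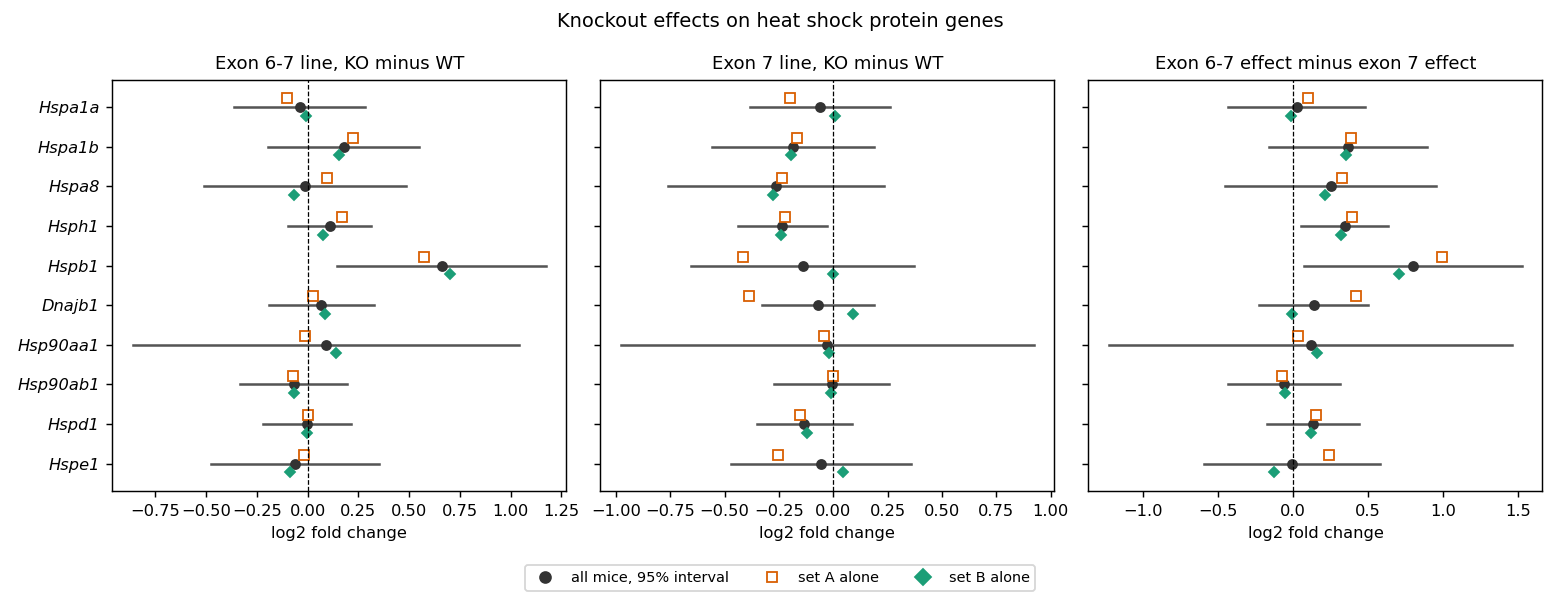
Log2 fold change of KO minus WT in the exon 6-7 line (left) and the exon 7 line (middle), and the exon 6-7 effect minus the exon 7 effect (right), for each gene: black points with 95% intervals from limma over all mice, open squares from set A libraries alone, diamonds from set B libraries alone. All 10 black points lie below 0 in the exon 7 line (9 as deposited, 8 after rescaling to TPM, 7 after quantile normalization, 6 with array quality weights), and the intervals of Hspb1 (left, right) and Hsph1 (middle, right) leave out 0.

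By mean level over all mice the order was Hspa8 (905 FPKM), Hsp90ab1 (888), Hsp90aa1 (368), Hspd1 (100.2), Hspe1 (93.3), Hsph1 (89.0), Dnajb1 (20.2), Hspa1b (3.52), Hspb1 (2.77) and Hspa1a (2.68). The ranges over mice of the first pair overlapped, as did those of Hspd1, Hspe1 and Hsph1 and those of the last 3 genes, whereas Dnajb1 stood apart on both sides. Coordinates below are on mm10 (GENCODE M21).

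Hsp70 and its partners come first. Hspa8 (ENSMUSG00000015656, chr9:40800984-40810087), the Hsp70 that cells make at all times and that strips clathrin coats from vesicles, had 626, 800 and 966 FPKM in exon 6-7 KO mice, against 586, 827 and 1021 FPKM in exon 6-7 WT mice. It had 732, 1050 and 953 FPKM in exon 7 KO mice, against 862, 1129 and 1305 FPKM in exon 7 WT mice. The groups overlapped in both lines, with the lowest value of each group in its set A library. The log2 fold change was −0.01 ± 0.23 (SE) for exon 6-7 mice and −0.26 ± 0.23 for exon 7 mice, with 95% intervals of −0.51 to 0.49 and −0.76 to 0.23. With each mouse left out in turn it lay between −0.43 and −0.11 for exon 7 mice and between −0.23 and 0.17 for exon 6-7 mice.

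Hspa1a (ENSMUSG00000091971, chr17:34969190-34972156) and Hspa1b (ENSMUSG00000090877, chr17:34956436-34959238) are the strongly inducible Hsp70 genes, and both were among the 3 lowest of the 10. Hspa1a had 3.12, 3.10 and 2.74 FPKM in exon 6-7 KO mice, against 3.42, 2.82 and 3.04 FPKM in WT mice, and 1.72, 2.01 and 3.10 FPKM in exon 7 KO mice, against 2.12, 2.38 and 2.62 FPKM in WT mice. Hspa1b had 4.87, 3.78 and 2.98 FPKM in exon 6-7 KO mice, against 4.03, 3.01 and 2.82 FPKM in WT mice, and 2.66, 3.06 and 3.77 FPKM in exon 7 KO mice, against 3.11, 3.76 and 4.35 FPKM in WT mice. Groups overlapped in each of these comparisons. Of the 50-base windows of Hspa1a transcripts 58.8% also occur in Hspa1b, and Gm20481 overlaps 2225 bases of Hspa1a on the opposite strand. In a mouse, genes outside the pair sharing such windows summed to up to 266% of Hspa1a and 194% of Hspa1b. How reads were split between these genes is therefore uncertain. Summed, the pair had a log2 fold change of 0.09 ± 0.16 (SE) for exon 6-7 mice and −0.15 ± 0.16 for exon 7 mice (limma adjusted p = 0.9998 and 0.9999).

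Dnajb1 (ENSMUSG00000005483, chr8:83608193-83612653), the J-domain partner that loads clients onto Hsp70, had 24.1, 21.98 and 20.4 FPKM in exon 6-7 KO mice, against 23.6, 19.6 and 20.1 FPKM in WT mice. It had 15.6, 19.3 and 20.1 FPKM in exon 7 KO mice, against 20.7, 17.2 and 19.8 FPKM in WT mice. The lowest value of all was that of KO969, and the groups overlapped. In the exon 7 line the log2 fold change was −0.39 between the set A libraries and 0.09 between the set B libraries.

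Hsph1 (ENSMUSG00000029657, chr5:149614287-149636376), an Hsp110 protein that resets Hsp70 and helps to dissolve aggregates, was the 1 gene of the 10 whose genotypes did not overlap within a line. It had 93.0, 93.9 and 85.7 FPKM in exon 7 KO mice, against 108.7, 96.3 and 117.2 FPKM in exon 7 WT mice, so that all 3 KO mice were below all 3 WT mice, as for 3.76% of all genes (3.27% lay apart above, and in the exon 6-7 line 5.02% above and 6.3% below). In the exon 6-7 line it had 83.4, 77.6 and 84.3 FPKM in KO mice, against 73.997, 70.1 and 83.6 FPKM in WT mice. Those groups overlapped, with the 2 highest values in KO864 and WT865. The log2 fold change was −0.24 ± 0.09 (SE) in the exon 7 line (unadjusted p = 0.0281, limma adjusted p = 0.9999) and 0.11 ± 0.09 in the exon 6-7 line. With 3 mice against 3 an exact permutation test cannot go below 0.1, the value it gave in the exon 7 line. The difference of the effects was 0.34, with a 95% interval of 0.05 to 0.63, an exact two-sided permutation p of 0.025 over 400 relabellings and a limma adjusted p of 0.9998. It was 0.39 in set A alone and 0.32 in set B alone, and 0.28 to 0.42 when each mouse was left out in turn.

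**Figure D2:**
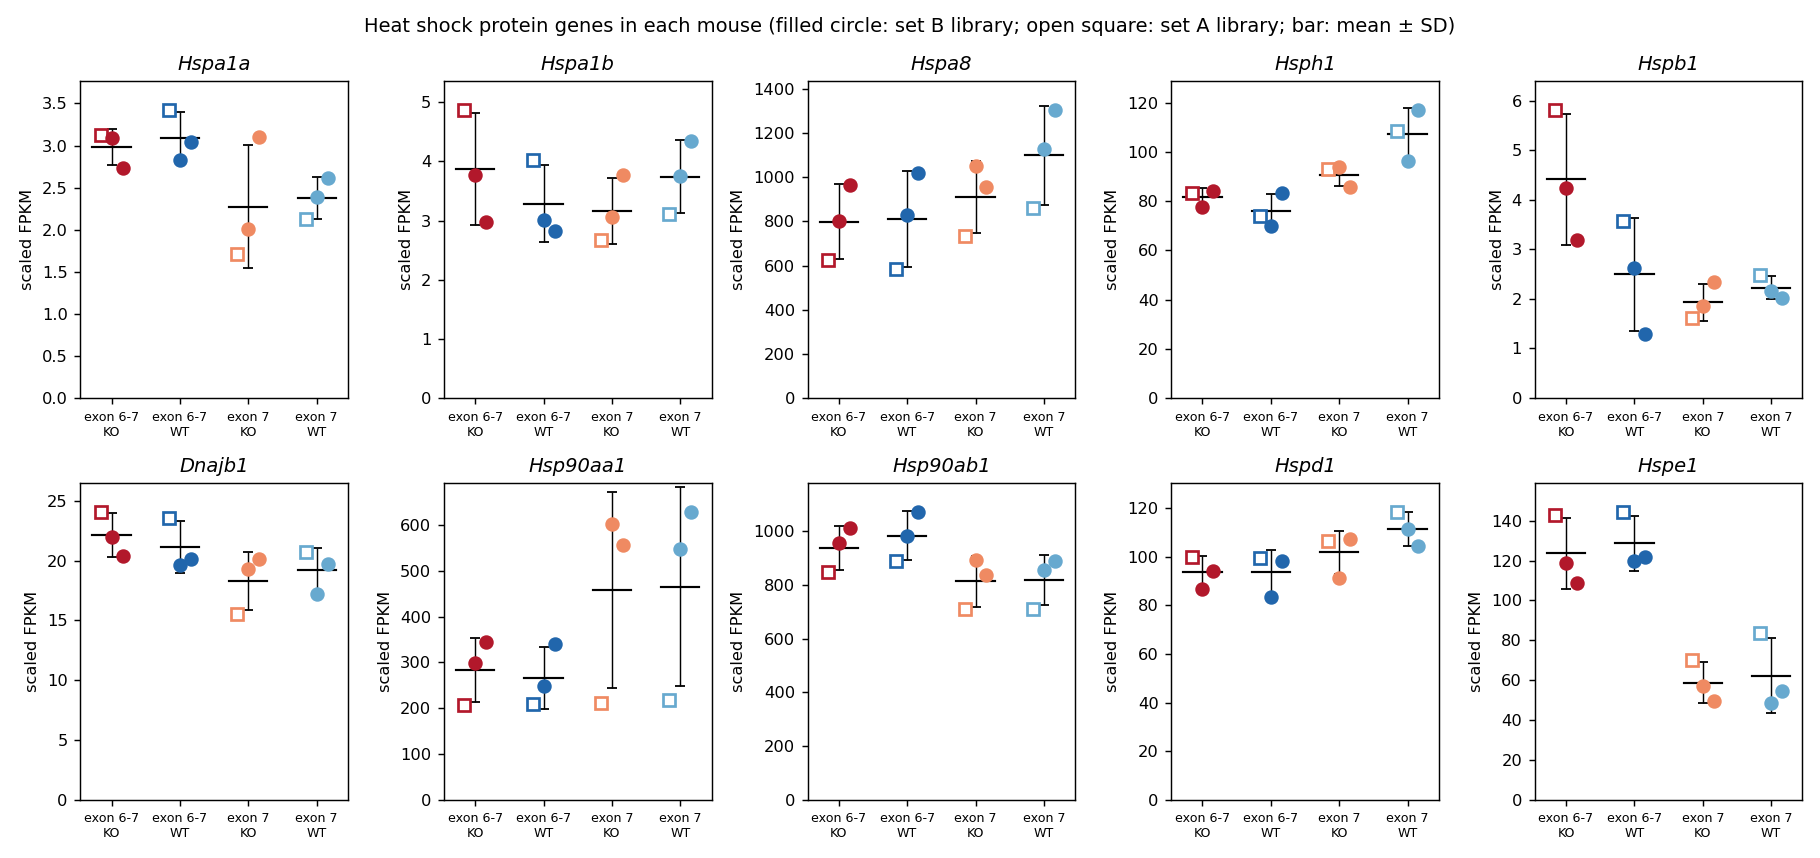
Scaled FPKM of each gene in each mouse, by group: filled circles are set B libraries, open squares set A libraries, and bars the mean ± SD of 3 mice; each panel has its own axis from 0. Genotypes overlap in every panel except Hsph1 in the exon 7 line, while Hspe1 is lower and Hsph1 higher in both exon 7 groups than in the exon 6-7 groups.

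Hsp90ab1 (ENSMUSG00000023944, chr17:45567775-45573271), the form that cells make steadily, had 847, 955 and 1011 FPKM in exon 6-7 KO mice, against 891, 983 and 1073 FPKM in WT mice, and 711, 895 and 836 FPKM in exon 7 KO mice, against 710, 856 and 889 FPKM in WT mice. Its log2 fold change was −0.07 ± 0.12 (SE) for exon 6-7 mice and −0.01 ± 0.12 for exon 7 mice. The genotypes overlapped in both lines.

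Hsp90aa1 (ENSMUSG00000021270, chr12:110690605-110702728), the more inducible form, had 208, 298 and 344 FPKM in exon 6-7 KO mice, against 209, 248 and 341 FPKM in WT mice. In exon 7 KO mice it had 212, 603 and 557 FPKM, against 218, 548 and 629 FPKM in exon 7 WT mice. The lowest mouse of each group was its set A library, and in the exon 7 line both set A libraries were far below the other 4 mice. The log2 fold change was 0.09 ± 0.44 (SE) for the exon 6-7 mice and −0.03 ± 0.44 for the exon 7 mice, with 95% intervals of −0.86 to 1.04 and −0.98 to 0.92, the widest of the 10. In the exon 7 line the log2 fold change was −0.05 in set A and −0.02 in set B alone. Its ratio to Hsp90ab1 averaged 0.299 ± 0.0491 in exon 6-7 KO mice and 0.268 ± 0.0438 in exon 6-7 WT mice, and 0.546 ± 0.215 in exon 7 KO mice and 0.552 ± 0.214 in exon 7 WT mice (SD, n = 3 each).

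Hspb1 (ENSMUSG00000004951, chr5:135887919-135889563), a small heat shock protein that also steadies actin filaments, had the largest difference between genotypes of the 10. It had 5.81, 4.24 and 3.19 FPKM in exon 6-7 KO mice, against 3.57, 2.62 and 1.29 FPKM in exon 6-7 WT mice. In the exon 7 line it had 1.61, 1.86 and 2.33 FPKM in KO mice, against 2.48, 2.17 and 2.02 FPKM in WT mice. The groups overlapped in both lines, in the exon 6-7 line by KO864 and WT778 only. The log2 fold change was 0.66 ± 0.24 (SE) for exon 6-7 mice (unadjusted p = 0.0159, limma adjusted p = 0.9998, exact two-sided permutation p = 0.2) and −0.14 ± 0.24 for exon 7 mice. The difference of the effects was 0.80, with a 95% interval of 0.08 to 1.53, an exact two-sided permutation p of 0.045 and a limma adjusted p of 0.9998.

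The lowest Hspb1 value, 1.29 FPKM, was that of WT865, the library with few choroid plexus transcripts. Without it the log2 fold change in the exon 6-7 line was 0.38 and the difference of the effects 0.52; without KO776, the highest mouse, they were 0.48 and 0.62. In that line all 12 choroid plexus markers lay above 0 in KO against WT (summed level 7380 to 9035 FPKM in KO mice and 110 to 9156 FPKM in WT mice), as did 9 of 10 meningeal and fibroblast markers (171 to 208 FPKM in KO mice, 109 to 186 FPKM in WT mice) and 8 of 12 endothelial and pericyte markers (154 to 181 FPKM in KO mice, 156 to 186 FPKM in WT mice). No marker of these lists was at 0 in all 3 mice of a group, and their part in the Hspb1 values was not tested. The pseudogene Hsp25-ps1 shares 51.6% of the 50-base windows of Hspb1, and the 2 such copies together reached up to 43.9% of the level of Hspb1 in a mouse, so this low value is uncertain. Other genes also share 52.7% of the windows of Hspa8, 58.5% of those of Hsp90aa1 and 44.8% of those of Hspd1. Copies with a value summed to up to 1.21%, 3.31% and 8.47% of the level of these genes in a mouse. How reads with several matches were handled is not known.

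For the mitochondrial pair the genotypes overlapped in both lines. Hspd1 (ENSMUSG00000025980, chr1:55077835-55088243) encodes Hsp60, the barrel of the chaperonin, and Hspe1 (ENSMUSG00000073676, chr1:55088132-55091307) encodes its lid, Hsp10. Hspd1 had 99.8, 86.7 and 94.2 FPKM in exon 6-7 KO mice, against 99.5, 83.5 and 98.3 FPKM in WT mice, and 106.6, 91.4 and 107.4 FPKM in exon 7 KO mice, against 118.6, 111.4 and 104.6 FPKM in WT mice. Its log2 fold change was −0.00 ± 0.10 (SE) in the exon 6-7 line, with a 95% interval of −0.22 to 0.22, and −0.13 ± 0.10 in the exon 7 line. Hspe1 had 143.0, 119.0 and 108.7 FPKM in exon 6-7 KO mice, against 144.6, 119.8 and 121.6 FPKM in WT mice. In exon 7 KO mice Hspe1 had 69.9, 57.0 and 49.5 FPKM, against 83.7, 48.5 and 54.7 FPKM in exon 7 WT mice. Its log2 fold change was −0.06 ± 0.19 in both lines.

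The ratio of Hspe1 to Hspd1 parted the lines without overlap, while the genotypes of a line overlapped. It averaged 1.32 ± 0.147 in exon 6-7 KO mice and 1.37 ± 0.120 in exon 6-7 WT mice (SD, n = 3 each), and 0.580 ± 0.104 in exon 7 KO mice and 0.554 ± 0.138 in exon 7 WT mice. The lowest ratio in the exon 6-7 line, 1.15 in KO864, stood above the highest in the exon 7 line, 0.705 in WT628. The annotated transcripts of the pair overlap by 112 bases on opposite strands, and the labels do not say whether reads were counted by strand. Between exon 7 WT and exon 6-7 WT mice, 35.7% of all genes, taken singly, lay apart above and 34.5% apart below. No such share was worked out for ratios of genes or for both genotypes together. Between these wild types genes of a length near that of Hspe1 had a median log2 fold change of −0.93. Genes of a length near that of Hspd1 had a median of −0.28. The part of length in the ratio was not tested.

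Several of the 10 genes differed between the library sets. In a limma fit with a term for the set in each line, 3 of 10 genes were lower in set A in the exon 6-7 line, where 6.82% of all genes were called (3.15% lower), and 3 of 10 lower and 1 higher in the exon 7 line, where 31.5% were called (15.5% lower, 16% higher). The same 3 genes, Hsp90aa1, Hspa8 and Hsp90ab1, were lower in both lines. Hsp90aa1 was at 208 and 209 FPKM in set A libraries of the exon 6-7 line, against 248 to 344 FPKM in set B libraries (log2 difference −0.55, limma adjusted p = 0.0240), and at 212 and 218 FPKM against 548 to 629 FPKM in the exon 7 line (−1.44, limma adjusted p = 4.31e-05). The set A minus set B difference of Hspa8 was −0.57 and −0.47 in the exon 6-7 and exon 7 lines (limma adjusted p = 0.0137 and 0.00640), and that of Hsp90ab1 was −0.21 and −0.29 (limma adjusted p = 0.0398 and 0.00227). Hspe1 was higher in set A in the exon 7 line by 0.54 (limma adjusted p = 0.00121), and by 0.29 in the exon 6-7 line, which did not pass (limma adjusted p = 0.0711). For Hsph1 the difference was −0.00 and 0.04, and the sets overlapped. Transcripts of the mitochondrial genome made up 13.6% and 14.3% of the summed values in set A libraries of the exon 7 line, against 10.3% to 10.9% in set B libraries, and 6.22% to 7.39% in the exon 6-7 line; their part in these differences was not tested.

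Over the 10 genes, the median deviation of a mouse from the mean of its line was between −0.24 in KO969 and 0.13 in WT999 on the log2 scale. In the exon 6-7 line the medians were 0.09, 0.02 and −0.00 in KO mice, against 0.10, −0.12 and 0.04 in WT mice. In the exon 7 line they were −0.24, −0.06 and 0.07 in KO mice, against 0.03, 0.06 and 0.13 in WT mice. The genotypes overlapped in both lines.

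**Figure D3:**
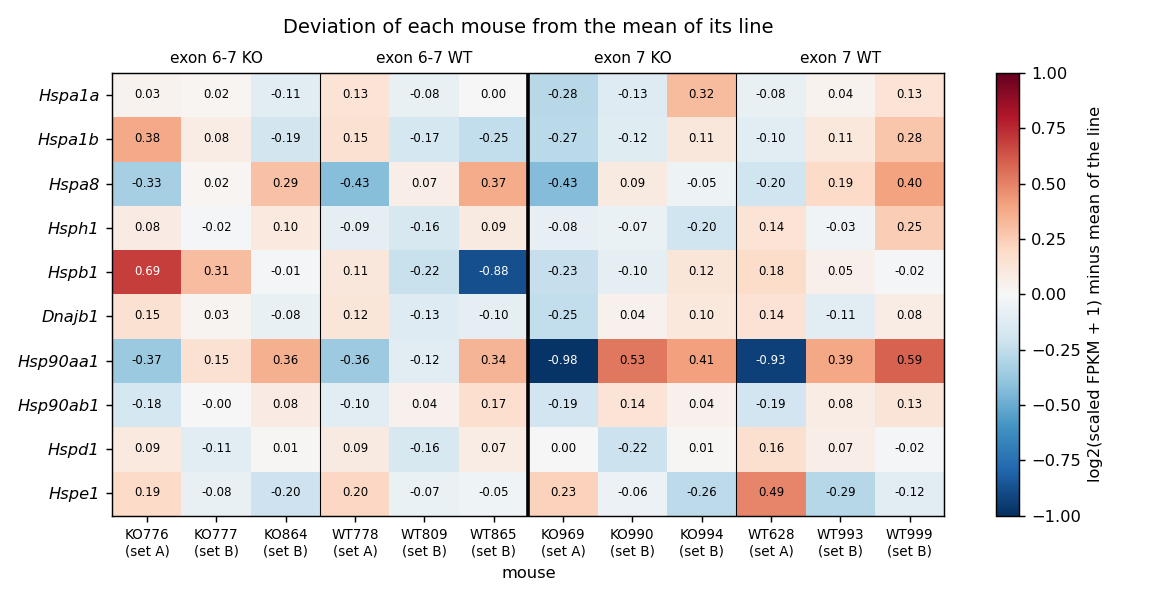
Deviation of log2(scaled FPKM + 1) from the mean of the line, for each gene (rows) and mouse (columns, grouped by genotype within line, with the library set in brackets); red is above and blue below the mean. The set A columns hold the lowest Hsp90aa1 values (−0.98 in KO969 and −0.93 in WT628), and WT865 the lowest Hspb1 value (−0.88).

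The wild-type mice of the lines differed at several of these genes, as they did for most genes. In exon 7 WT against exon 6-7 WT mice limma called 2 of 10 higher and 1 lower, while it called 67.1% of all genes (34% higher, 33.1% lower). The count of 10 called was 7 with a term for the library set, 6 after quantile normalization and 5 in set B alone. The share of all genes called under these settings was not worked out, so these counts cannot be set against one. Hsph1 was higher (log2 fold change 0.49 ± 0.09 SE, limma adjusted p = 5.58e-04), as was Hspd1 (0.25 ± 0.10, limma adjusted p = 0.0411), and Hspe1 was lower (−1.07 ± 0.19, limma adjusted p = 3.34e-04). The groups did not overlap for these 3 genes, nor for Hspa1a and Hsp90ab1, which lay lower in exon 7 WT mice without passing; of all genes 35.7% lay apart above and 34.5% apart below. The Hspd1 call was lost with FPKM as deposited (0.10, limma adjusted p = 0.378), with no low-value filter, with array weights and in set B alone, and without WT809 (0.17), KO864 (0.25), WT628 (0.21) or WT993 (0.25). Hsp90aa1 differed by 0.06 between the set A wild types and by 1.01 between the set B wild types.

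The line difference went with transcript length across all genes. The lines are separate sets of animals and libraries, and line, litter and library preparation cannot be told apart. Across 14053 genes with a known length, the log2 fold change of exon 7 WT against exon 6-7 WT mice had a Spearman rho of 0.67 with the length of the longest transcript, a description over genes that share the same 6 libraries. Genes under 1000 bases had a median of −0.95, and genes of 4000 to 6000 bases one of 0.42. Hspe1, of 964 bases, lay at −1.07 where genes of similar length (length ratio of 0.8 to 1.25) had a median of −0.93, and Hsph1, of 4764 bases, at 0.49 where the median was 0.38. Hspb1, nearly as short with 930 bases, lay at −0.06 against a median of −0.94. With each mouse left out in turn this Hspb1 value ranged between −0.34 and 0.16. Hspb1 averaged 2.22 FPKM in exon 7 WT and 2.49 FPKM in exon 6-7 WT mice. In KO mice it averaged 1.93 FPKM in the exon 7 line and 4.41 FPKM in the exon 6-7 line. Hspd1, of 2423 bases, lay at 0.25 against −0.28, and Hsp90aa1, of 3281 bases, at 0.70 against −0.01. The part of length in these values was not tested. Within the lines the rho of length with the KO against WT difference was 0.35 for exon 6-7 mice and −0.18 for exon 7 mice.

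**Figure D4:**
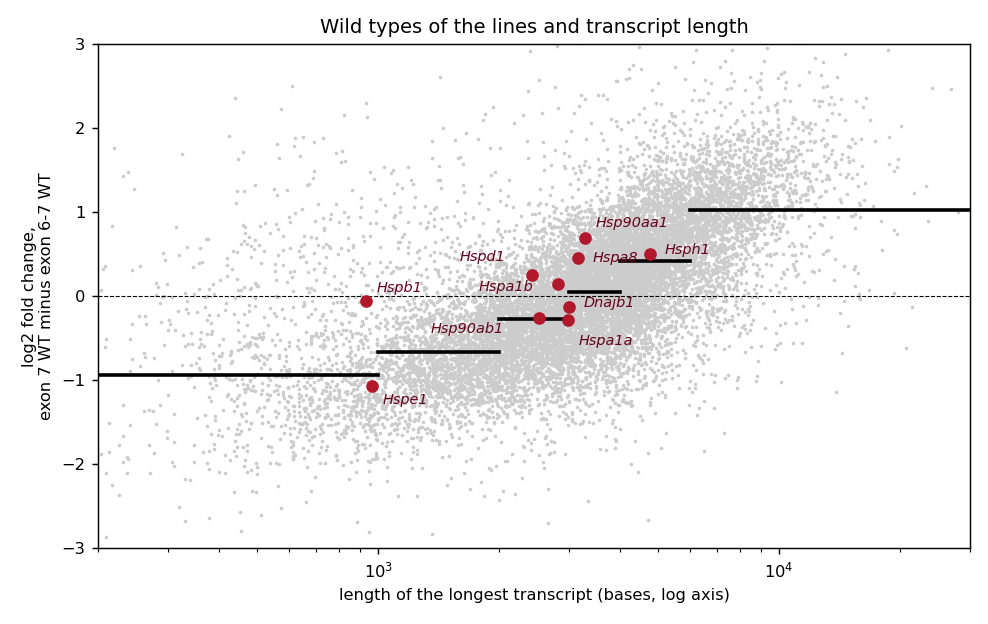
Log2 fold change of exon 7 WT against exon 6-7 WT mice by the length of the longest transcript (log axis): grey points are all genes tested with a known length, black bars the median of each length range, and red points the heat shock protein genes. Hspe1 (−1.07) lies close to the median of genes under 1000 bases (−0.95), whereas Hspb1 of similar length lies at −0.06 (−0.34 to 0.16 with each mouse left out in turn). Values beyond −3 and 3 are not drawn.

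Other chaperone families, listed beside the 10 genes, were without a called gene in either line and in the difference, by the same limma fit over all genes. That fit called 0.0141% of all genes in the exon 6-7 line, 0% in the exon 7 line and 0.00704% in the difference. Unless stated otherwise, genes named from a family had its 2 smallest unadjusted p in the difference. Of 18 endoplasmic reticulum chaperones, which fold secreted and membrane proteins, 15 lay above 0 in exon 6-7 KO against WT mice (median 0.15). In exon 7 KO against WT mice 17 lay below 0 (median −0.10). At an unadjusted p under 0.05 there were 2 in the exon 6-7 line (4.1% of all genes) and 1 in the exon 7 line (3.46%). Rescaling to TPM lifted the median of all genes to 0.05 and 0.04. On that scale the endoplasmic reticulum counts were 18 above 0 in the exon 6-7 line and 14 below 0 in the exon 7 line. Hsp90b1, the Hsp90 of that compartment, had 166.8, 164.2 and 167.9 FPKM in exon 6-7 KO mice, against 142.8, 142.5 and 171.0 FPKM in WT mice. It had 168.4, 166.9 and 137.3 FPKM in exon 7 KO mice, against 194.6, 189.1 and 181.0 FPKM in WT mice. Those groups did not overlap, with KO below WT, as for 3.76% of all genes. The difference of its effects was 0.39 (95% interval 0.09 to 0.70, limma adjusted p = 0.9998), beside 0.34 for Hsph1. Hsp90b1 was picked by this same difference, which favoured an interval without 0. Pdia4, a disulfide isomerase, had a log2 fold change of 0.28 in exon 6-7 mice and −0.18 in exon 7 mice.

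Of 13 co-chaperones of Hsp90, 8 lay above 0 in the exon 6-7 line (median 0.03; 6 without WT865) and 11 below 0 in the exon 7 line (median −0.16; 10 after rescaling to TPM or quantile normalization). Stip1, which hands clients over between Hsp70 and Hsp90, had a log2 fold change of 0.06 in exon 6-7 mice and −0.28 in exon 7 mice, and Cdc37l1, a relative of the kinase co-chaperone Cdc37, had 0.13 and −0.22. All 8 subunits of the cytosolic chaperonin CCT lay below 0 in the exon 7 line (median −0.08; 7 after rescaling to TPM or quantile normalization) and 5 of 8 in the exon 6-7 line (3 after rescaling to TPM, 2 after quantile normalization). Cct8 had a log2 fold change of 0.02 in exon 6-7 mice and −0.14 in exon 7 mice, and Cct5 had −0.01 and −0.11. Among 19 co-chaperones of Hsp70, 10 lay above 0 in the exon 6-7 line (15 after rescaling to TPM) and 13 below 0 in the exon 7 line (9 after rescaling to TPM). Hspbp1, which releases nucleotide from Hsp70, had −0.24 in exon 6-7 mice and 0.01 in exon 7 mice, and Dnajc6, the neuronal auxilin that brings Hspa8 to clathrin, had 0.11 and −0.07. Of 12 other mitochondrial chaperones and proteases, 8 lay below 0 for exon 6-7 mice and 7 for exon 7 mice (4 after rescaling to TPM), with a median effect difference of −0.02. Lonp1 and Clpp, proteases of the matrix, had −0.16 and −0.15 in exon 6-7 mice and 0.07 and 0.05 in exon 7 mice.

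The other families were small. Of 6 other Hsp70 and Hsp110 genes tested out of 7 on the list, 3 lay above 0 for exon 6-7 mice and 1 for exon 7 mice (4 and 2 after rescaling to TPM); Hspa2 had a log2 fold change of −0.04 and 0.19, and Hspa4l of 0.11 and −0.15, in exon 6-7 and exon 7 mice. Of 7 other small heat shock proteins 4 were tested, 2 in each direction in both lines. At an unadjusted p under 0.05 there was 1 in the exon 6-7 comparison (4.1% of all genes) and 3 in the exon 7 comparison (3.46%). KO mice lay apart above WT mice for 2 of the 4 in the exon 7 line (3.27% of all genes). In the exon 6-7 line they did so for 1 (5.02%). Hspb6 lay above 0 in both (0.29 and 0.51), as did Hspb8 (0.33 and 0.36), named after its values were seen, while Cryab, the alpha-B crystallin of lens and glia, lay below 0 in both (−0.15 and −0.26). Of 5 heat shock factors and their inhibitor 4 were tested, with 2 in each direction in both lines (3 above 0 in the exon 6-7 line after quantile normalization). Hsbp1, the inhibitor, had −0.09 in exon 6-7 mice and 0.03 in exon 7 mice. Hsf4 had 4.52, 4.42 and 4.36 FPKM in exon 6-7 KO mice, against 5.92, 5.86 and 5.73 FPKM in WT mice (log2 fold change −0.33, unadjusted p = 0.00674, limma adjusted p = 0.9998), and 0.07 was its log2 fold change in the exon 7 line.

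**Figure D5:**
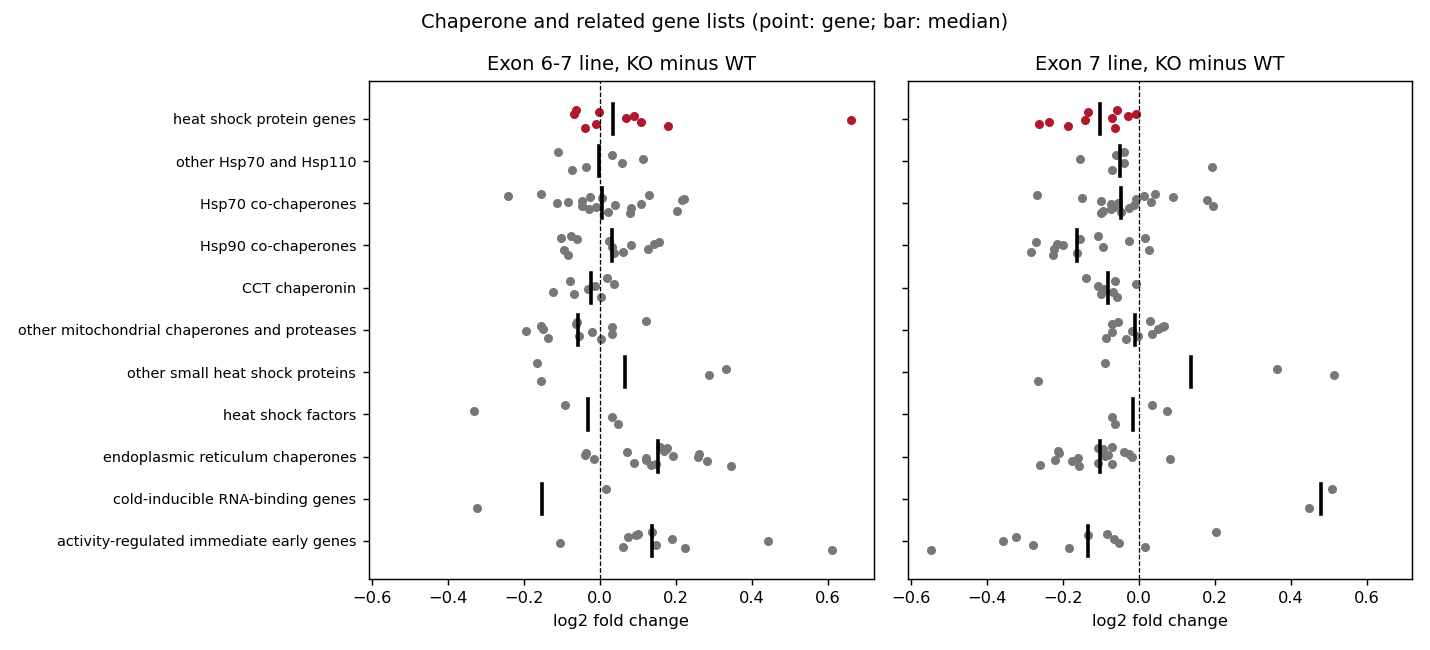
Log2 fold change of KO minus WT in the exon 6-7 line (left) and the exon 7 line (right) for each tested gene of the chaperone lists, of the cold-inducible genes and of the immediate early genes: a point is a gene and a bar the median of its list. Medians of the heat shock protein genes (0.03 and −0.10) and of the endoplasmic reticulum chaperones (0.15 and −0.10) lie on opposite sides of 0, as they did with FPKM as deposited, after rescaling to TPM and after quantile normalization; with a filter of 5 FPKM, which keeps 7 of the 10 heat shock protein genes, both of their medians lie below 0 (−0.0014 and −0.07).

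Cirbp and Rbm3, RNA-binding proteins that rise when cells cool, were set beside the heat shock protein genes. The part of temperature in their values was not tested. Cirbp had 104.7, 103.4 and 103.2 FPKM in exon 6-7 KO mice, against 145.0, 136.4 and 111.5 FPKM in WT mice, and 67.7, 50.4 and 61.1 FPKM in exon 7 KO mice, against 41.3, 53.2 and 36.6 FPKM in WT mice. All 3 KO mice lay below the WT mice in the exon 6-7 line, as for 6.3% of all genes. In the exon 7 line all KO mice but KO990 lay above the WT mice. The difference of its effects was −0.77 (95% interval −1.22 to −0.32, unadjusted p = 0.00282, limma adjusted p = 0.9998). That of 8 of the 10 heat shock protein genes lay above 0, as did that of 51.2% of all genes. Rbm3 had a log2 fold change of 0.02 in exon 6-7 mice (−0.06 without WT865) and 0.51 in exon 7 mice. Immediate early genes, which neurons switch on within minutes of firing, lay above 0 in the exon 6-7 line for 10 of the 11 tested out of 12 (median 0.14; 8 without WT865) and below 0 in the exon 7 line for 9 of 11 (median −0.13). Fos and Egr1 were named because they had the smallest unadjusted p of the 11 in the difference of the effects. Fos had 7.47, 4.05 and 5.43 FPKM in exon 6-7 KO mice, against 3.18, 3.14 and 3.45 FPKM in WT mice. In exon 7 KO mice Fos had 3.74, 4.99 and 9.45 FPKM, against 9.07, 7.59 and 9.71 FPKM in WT mice. The difference of its effects was 1.16 (95% interval 0.38 to 1.94, limma adjusted p = 0.9998). That choice favoured an interval without 0. Egr1 had a log2 fold change of 0.15 in exon 6-7 mice and −0.28 in exon 7 mice.

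The genes whose pattern over the 12 mice was most like the mean deviation of the 10 were Pik3cd, Shc3, Tpd52-ps, Rit1 and Fkbp4, with Pearson r of 0.946, 0.929, 0.920, 0.919 and 0.913 after the mean of each line was taken off. They were picked as the highest r outside the 10 among 14212 genes, so the search itself favoured high values. Fkbp4, an Hsp90 co-chaperone of steroid receptors, had 77.7, 79.8 and 83.1 FPKM in exon 6-7 KO mice, against 78.3, 67.8 and 81.6 FPKM in WT mice, and 43.6, 60.5 and 64.4 FPKM in exon 7 KO mice, against 52.0, 69.5 and 71.7 FPKM in WT mice. The 10 themselves did not move as a block: their r with their own mean ranged between −0.446 for Hspe1 and 0.731 for Hspa1b. For Hspa1b 348 of 14212 genes had a higher r, although it is itself part of that mean. These r values describe libraries that also differ by set.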

How the data were processed

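Poly(A) RNA of hippocampi was sequenced on an Illumina HiSeq, per the labels. CASAVA, GSNAP, Cufflinks and the mm10 build are named in the submitters' processing notes, with no role or order, and the sources used here give no settings for counting, strand or reads with several matches. The authors deposited 1 table of FPKM per mouse with Ensembl release 74 identifiers, per the file headers; a gene absent from a table was set to 0. Here, median-of-ratios scaling used 12511 genes (factors 0.919 to 1.07), and 110 genes of short non-coding RNA were left out. The test took log2(scaled FPKM + 1) of genes averaging 1 FPKM or more, a scale on which fold changes of low genes are understated, with limma 3.58.1 (limma-trend) in R 4.3.3. The fit had 4 group means and 1 spread from 12 libraries (8 residual degrees of freedom, prior 3.88); p-values are two-sided, adjusted ones Benjamini-Hochberg over 14212 genes, threshold 0.05. The fit was tested on simulated data. Exact permutation tests enumerated 20 relabellings for a line and 400 for the effect difference, with smallest p-values of 0.1 and 0.005.

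Symbols, coordinates and lengths came from GENCODE M21, on the build of mm10, and promoters from RefSeq GRCm38.p6. The genes, lists, library sets and tests were chosen with earlier results of these data known. Named were the 10 genes, from each chaperone, cold-inducible and early-gene list the 2 with the smallest unadjusted p in the effect difference, the 5 genes most like their mean, and as checks the set gene and Shank2; Hsp25-ps1 was named after its values were seen. The library sets are not a batch named in the labels. Alternatives covered the pseudocount (0.1 and 5), the low-value filter (none, or 5 FPKM), the scaling (deposited values, TPM, quantile normalization), each line alone, array weights, a set term, each set alone, the sum of Hspa1a and Hspa1b, and each mouse left out. Plots were made with Python 3.11.15 and matplotlib 3.10.9.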

Additional observations from a re-analysis of the deposited data

How the results depend on the processing

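By limma, none of the genes tested among the 10 (7 with a filter of 5 FPKM, which drops 3) passed in either knockout comparison or in their difference under any alternative that gave a test; with set A alone there is no test. Of the summary results 177 alternative values stayed within their limits and 15 moved; of the single-gene values 844 stayed, 81 turned sign and 6 moved, while 21 gained and 8 lost a call, each of these between the wild types; the cause was not tested. Rescaling to TPM moved the median of all genes to 0.05 in exon 6-7 mice, 0.04 in exon 7 mice and 0.13 between the wild types, where it was −0.14 as deposited, so that signs under TPM are not relative to all genes. No paired analysis was made: each mouse number occurs once, and which KO and WT mice were littermates is not known here. Any pairing by litter was therefore not taken into account. FPKM without read totals and 3 mice a group limit the precision, most of all for Hspa1a, Hspa1b and Hspb1.

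Log2 fold changes that turned sign were, in exon 6-7 KO against WT mice, Hspd1 with FPKM as deposited (0.00305), Hspa8, Hsp90ab1, Hspd1 and Hspe1 after quantile normalization (0.113, 0.0362, 0.0762 and 0.0198), Hspa1a, Hspa8 and Hspd1 after rescaling to TPM (0.00463, 0.0456 and 0.0548), and Hspa8, Hsp90aa1 and Hspd1 in set A alone (0.0958, −0.00998 and 0.00379). In exon 7 KO against WT mice they were Hsp90ab1 as deposited (4.64e-05), Hspa8, Hsp90aa1 and Hsp90ab1 after quantile normalization (0.0137, 0.0397 and 0.0719), Hsp90aa1 and Hsp90ab1 after rescaling to TPM (0.0210 and 0.0403), Dnajb1, Hsp90aa1, Hsp90ab1 and Hspe1 with array weights (0.0279, 0.0338, 0.0159 and 0.0379), Hspa1a, Dnajb1 and Hspe1 in set B alone (0.00595, 0.0911 and 0.0431), and Hsp90ab1 in set A alone (0.000232). In the effect difference they were Hspe1 after quantile normalization, TPM and in set A alone (0.0645, 0.00308 and 0.241), and Hspa1a and Dnajb1 in set B alone (−0.0126 and −0.00283). In exon 7 WT against exon 6-7 WT mice they were Hspa1b and Hsp90ab1 after quantile normalization (−0.0147 and 0.0376), Hspb1 and Dnajb1 after TPM (0.0587 and 0.0124), Hspa1b in set A alone (−0.290), and Hspb1 with a set term and in set B alone (0.151 and 0.103).

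In set A alone the median was −0.212 in exon 7 mice and 0.286 in the effect difference. Between the wild types, 6 genes were called after quantile normalization, 7 with a set term and 5 in set B alone, with no share of all genes worked out. The median there was 0.251 over the 7 genes left by a filter of 5 FPKM, −0.0702 as deposited, 0.177 after TPM, 0.204 with a set term, 0.177 in set B and −0.235 in set A alone.

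With each mouse left out in turn, the median ranged between −0.22 and −0.0792 in exon 7 mice, 0.0857 and 0.26 in the effect difference, and −0.0448 and 0.20 between wild types. For exon 6-7 KO against WT mice Hspa1a ranged between −0.0867 and 0.0186, Hsp90aa1 −0.0675 and 0.30, Hspd1 −0.0817 and 0.052, Hspe1 −0.17 and 0.0249, Hspa8 −0.23 and 0.17, and Hsp90ab1 −0.14 and 0.00432. For exon 7 KO against WT mice Hspe1 ranged between −0.21 and 0.17, Hsp90aa1 −0.50 and 0.46, Hsp90ab1 −0.11 and 0.086, Hspa1a −0.24 and 0.0607, Dnajb1 −0.14 and 0.0379, and Hspd1 −0.18 and −0.0578, and for exon 6-7 mice Hsph1 ranged between 0.0544 and 0.18. In the effect difference Hsp90aa1 ranged between −0.36 and 0.59, Hspe1 −0.23 and 0.15, Hspa1a −0.0991 and 0.20, and Hsp90ab1 −0.15 and 0.0395, and between wild types Hspb1 ranged between −0.34 and 0.16.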
